A study of Homo sapiens with 3 samples.

Results

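The mRNA levels of 10 genes of cellular iron handling were examined in MM468 cells, the MDA-MB-468 line derived from triple-negative breast cancer (TNBC), and in its derivatives selected for resistance to chemotherapy. The genes were picked by symbol from the 46427 genes of the deposited table: the transferrin receptor TFRC, the ferritin chains FTH1 and FTL, the ferritin cargo receptor NCOA4, the iron transporters SLC11A2 and SLC40A1, the iron regulator IREB2, and the STEAP family members STEAP1, STEAP2 and STEAP3. All 10 were present in the table. The study compared untreated parental MM468 cells with adriamycin-resistant cells, which had survived adriamycin at 10 to 140 nM, and with paclitaxel-resistant cells, which had survived paclitaxel at 2 to 320 nM. All 3 lines were wild type in genotype by their labels. Each resistant line was the surviving population of a single selection as far as the labels and methods say, and whether drug was present when RNA was harvested was not given. RNA was sequenced from 1 library per line, with 32704885 counts in parental, 47567927 in adriamycin-resistant and 43242628 in paclitaxel-resistant cells. No difference between lines therefore has a replicate check, no SD or test can be given, and a difference compares libraries rather than conditions. All 6 epithelial markers were counted in every library. Their summed level was 7998 TPM in parental, 8683 in adriamycin-resistant and 7382 in paclitaxel-resistant cells. TPM is a measure scaled by transcript length and library total. Single markers moved in different directions. In paclitaxel-resistant cells KRT7 and KRT19 were at their lowest by TPM, and EPCAM, CDH1 and KRT8 at their highest.

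Most cells take up iron as ferric iron bound to transferrin, which the transferrin receptor carries into endosomes. There a STEAP reductase turns it into ferrous iron, and the divalent metal transporter SLC11A2 passes it to the cytosol. Iron that is not used is stored in ferritin, a shell of heavy chains, which oxidise iron, and light chains, which help to build the mineral core. NCOA4 delivers ferritin to lysosomes, where the iron is released again, and ferroportin, the product of SLC40A1, exports iron from the cell. The iron regulatory proteins, among them IREB2, bind a stem-loop called the iron-responsive element (IRE) when cytosolic iron is low. An IRE in the 5′ UTR then holds back translation, as in the ferritins and ferroportin, whereas the IREs in the 3′ UTR of TFRC protect the mRNA from decay. Iron can thus change ferritin and ferroportin protein through these elements without a change in mRNA, and only mRNA was measured here.

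Matches to an IRE pattern are shown because their place differs between the members. They lay in the 5′ UTR of the ferritins and ferroportin and in the 3′ UTR of the receptor. They were found in GENCODE v29 transcripts of GRCh38 by a C, any 5 bases and then CAGTGN, on the transcript strand only, with 5 base pairs, Watson-Crick or G-T, closing the loop of 6 bases. Each is written 5′ to 3′ on the transcript with the loop in capitals.
FTH1, 5′ UTR, chr11:61967574-61967601, minus strand: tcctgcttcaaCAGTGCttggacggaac
FTL, 5′ UTR, chr19:48965336-48965363, plus strand: tcttgcttcaaCAGTGTttggacggaac
SLC40A1, 5′ UTR, chr2:189580661-189580688, minus strand: aacttcagctaCAGTGTtagctaagttt
TFRC, 3′ UTR, chr3:196050463-196050490, minus strand: attatcgggaaCAGTGTttcccataatt
TFRC, 3′ UTR, chr3:196050510-196050537, minus strand: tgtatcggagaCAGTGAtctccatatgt
TFRC, 3′ UTR, chr3:196050575-196050602, minus strand: attatcgggagCAGTGTcttccataatg
TFRC, 3′ UTR, chr3:196050979-196051006, minus strand: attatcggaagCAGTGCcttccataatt

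The pattern was present in 291 of 19669 protein-coding genes (1.48%) anywhere in a coding transcript, and in 49 (0.249%) within the first 300 bases. Among the 10 genes it was found in TFRC, FTH1, FTL and SLC40A1, in 3 of 4, 7 of 8, 1 of 1 and 1 of 5 of their coding transcripts. No match was found in SLC11A2, NCOA4, IREB2, STEAP1, STEAP2 or STEAP3. This says only that these letters with this stem were not in the transcripts searched. An IRE of another form would be missed, also in the genes with a match. A match describes sequence and is not evidence of binding in these cells.

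Levels are given first as deposited TPM, which are scaled by transcript length and so allow genes to be compared within a library. Ferritin heavy chain was the most abundant of the 10 mRNAs in every library, with FTH1 ranking 9th among all genes by TPM in parental, 11th in adriamycin-resistant and 15th in paclitaxel-resistant cells. In parental cells it was followed by FTL, TFRC, NCOA4, SLC11A2, STEAP3 and IREB2, while SLC40A1 lay near 1 TPM and STEAP1 and STEAP2 were not counted. In paclitaxel-resistant cells IREB2 stood above SLC11A2 and STEAP3 in this order, at 39.5 against 32.9 and 12.03 TPM.

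**Figure D1:**
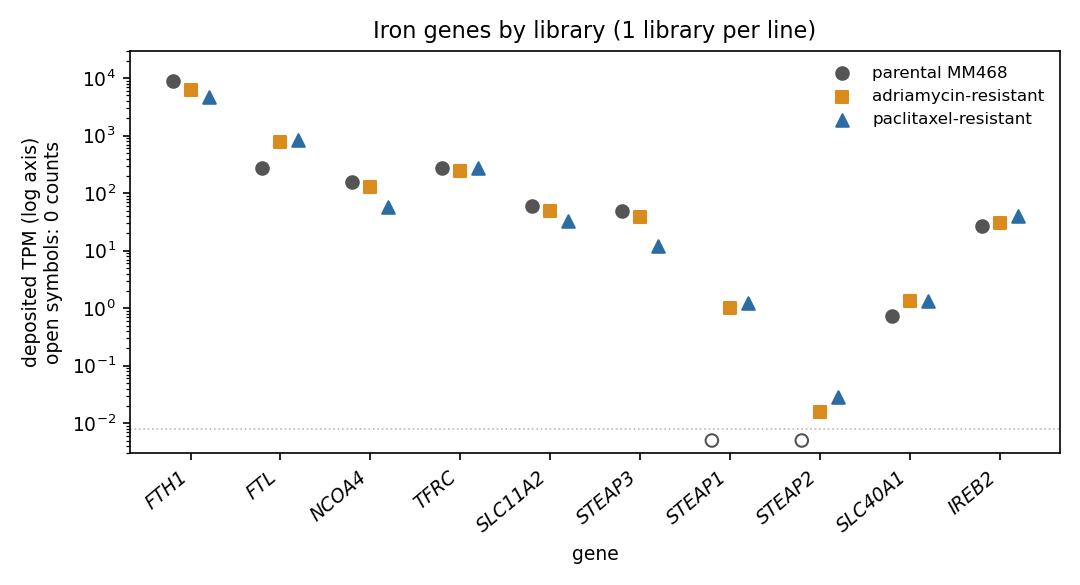
Deposited TPM (log axis) of the 10 iron genes in the 1 library of each line, with open symbols at the bottom for genes with 0 counts. FTH1 lay between 4764 and 8873 TPM in all 3 libraries, FTL was lowest in parental cells, NCOA4 and STEAP3 were lowest in paclitaxel-resistant cells, and STEAP1 and STEAP2 had no count in parental cells.

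Changes between lines were computed from counts, normalised over all 3 libraries by the trimmed mean of M values (TMM), for genes with 10 or more counts in 1 of the libraries compared. A gene is called higher or lower here at a change of at least 2-fold. The 95% intervals are exact and binomial, and reflect counting error alone. STEAP2 was under the count minimum, so 9 of the 10 genes were compared. In adriamycin-resistant against parental cells, FTL and STEAP1 were higher (2 of 9), none was lower and 7 changed by less than 2-fold, beside 11.0% higher and 11.2% lower among all 17950 genes compared. In paclitaxel-resistant against parental cells, FTL and STEAP1 were again higher (2 of 9), and FTH1, SLC11A2, NCOA4 and STEAP3 were lower (4 of 9), beside 20.5% higher and 13.5% lower of 19099 genes. In paclitaxel-resistant against adriamycin-resistant cells, NCOA4 and STEAP3 were lower (2 of 9) and none was higher, beside 20.0% higher and 13.3% lower of 19327 genes. The median log2 change of the 9 genes was -0.10, -0.33 and -0.39 in these comparisons, beside 0.03, 0.07 and 0.07 over all genes compared. Both comparisons with parental cells share the parental library, so a gene that is low or high there moves in both. Each line is a bulk sample, in which fewer cells expressing a gene and less mRNA per cell cannot be told apart.

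**Figure D2:**
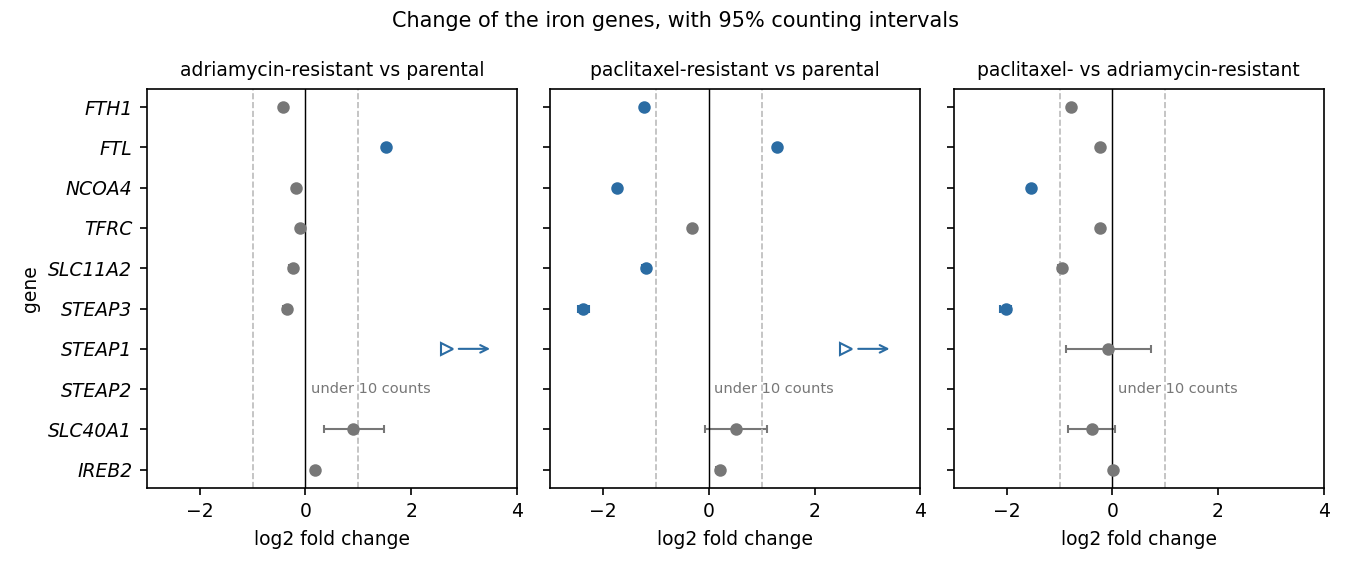
Log2 fold change of each iron gene in the 3 comparisons, with exact 95% counting intervals, dashed lines at a 2-fold change, blue for changes of at least 2-fold and arrows for lower bounds against 0 counts. FTL and STEAP1 lay to the right in both comparisons with parental cells, while FTH1, NCOA4, SLC11A2 and STEAP3 lay beyond 2-fold to the left in paclitaxel-resistant cells.

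The ferritin chains moved apart. FTL (NCBI Gene 2512, chr19:48965301-48966878, plus strand, GRCh38) encodes the light chain and had 278 TPM in parental, 769.8 in adriamycin-resistant and 854.5 in paclitaxel-resistant cells, from 3603, 15116 and 13572 counts. Both resistant lines were high and the parental line was low. On the normalised counts, FTL was 2.87-fold higher in adriamycin-resistant cells (95% interval 2.76 to 2.97, log2 change 1.52) and 2.44-fold higher in paclitaxel-resistant cells (2.35 to 2.54, log2 change 1.29) than in parental cells. Of all genes compared, 93.1% and 83.7% had a lower log2 change than FTL. The resistant lines differed from each other in FTL by -0.23 on the log2 scale, with the opposite sign on TPM.

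FTH1 (NCBI Gene 2495, chr11:61959718-61967660, minus strand), the heavy chain with the ferroxidase centre, went the other way. It had 8873 TPM in parental, 6318 in adriamycin-resistant and 4764 in paclitaxel-resistant cells, from 157797, 171038 and 104388 counts. The parental line was the highest and the paclitaxel-resistant line the lowest. FTH1 took 0.483% of all counts in parental, 0.36% in adriamycin-resistant and 0.241% in paclitaxel-resistant cells. It was 2.33-fold lower in paclitaxel-resistant than in parental cells (2.31 to 2.35, log2 change -1.22), whereas the log2 change was -0.43 in adriamycin-resistant cells. The call in paclitaxel-resistant cells depended on the scaling. The log2 change was -0.999 when counts were scaled by library size only and -0.897 on TPM with a pseudocount of 1. Scaling by library size moved the median of all genes compared up by 0.22.

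The proportion of the chains can be read within each library, without any scaling between libraries. Per length, FTH1 mRNA was 31.9 times as abundant as FTL mRNA in parental cells, 8.21 times in adriamycin-resistant and 5.58 times in paclitaxel-resistant cells. The light chain made up 3.04%, 10.9% and 15.2% of ferritin TPM in the same order. The ratio of FTL to FTH1 counts was 0.0228 in parental cells (0.0221 to 0.0236), 0.0884 in adriamycin-resistant cells (0.0869 to 0.0899) and 0.13 in paclitaxel-resistant cells (0.128 to 0.132). It was thus 3.87 times and 5.69 times the parental ratio, and no interval touched another. Summed ferritin mRNA was 9151, 7088 and 5619 TPM, so it was lower in both resistant lines although FTL was higher, because FTH1 supplied most of the sum.

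**Figure D3:**
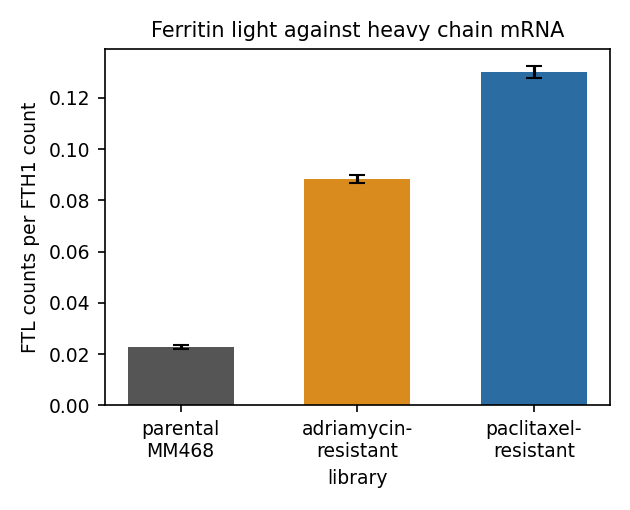
FTL counts per FTH1 count in the 1 library of each line (bars from 0), with exact 95% binomial intervals that cover counting error only. The ratio was 0.0228 in parental, 0.0884 in adriamycin-resistant and 0.13 in paclitaxel-resistant cells.

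Both ferritins have many processed pseudogenes of nearly the same sequence, to which reads can be assigned. The 20 genes named FTH1P with a number held 803, 973 and 616 counts in parental, adriamycin-resistant and paclitaxel-resistant cells, which was 0.509%, 0.569% and 0.59% of the FTH1 counts. The 10 genes named FTLP with a number held 11, 23 and 35 counts, or 0.305%, 0.152% and 0.258% of the FTL counts. The pseudogene counts were small beside those of the parent genes in every library, and reads dropped as ambiguous before counting were not analysed here.

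NCOA4 (NCBI Gene 8031, chr10:46005088-46030714, minus strand), which binds ferritin heavy chain and carries ferritin to autophagy, had 154 TPM in parental, 130.6 in adriamycin-resistant and 58.2 in paclitaxel-resistant cells. The counts were 8095, 10428 and 3760. The paclitaxel-resistant line was low and the other lines were close together. NCOA4 was 3.32-fold lower in paclitaxel-resistant than in parental cells (3.19 to 3.45, log2 change -1.73) and 2.92-fold lower than in adriamycin-resistant cells (2.81 to 3.03, log2 change -1.55), while the log2 change between adriamycin-resistant and parental cells was -0.18. Of all genes compared, 5.71% had a lower log2 change in paclitaxel-resistant against parental cells. Against its cargo, NCOA4 had 0.0513 counts per FTH1 count in parental, 0.061 in adriamycin-resistant and 0.036 in paclitaxel-resistant cells, so NCOA4 was lower in paclitaxel-resistant cells also relative to FTH1.

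TFRC (NCBI Gene 7037, chr3:196027183-196082189, minus strand), the receptor that brings in transferrin-bound iron, was nearly level. It had 271 TPM in parental, 243 in adriamycin-resistant and 272 in paclitaxel-resistant cells, from 20023, 27372 and 24629 counts. On normalised counts the log2 change was -0.10 in adriamycin-resistant and -0.33 in paclitaxel-resistant cells, under 2-fold in both. The sign in paclitaxel-resistant cells depended on the scaling, with a log2 change of 0.0006 on TPM with a pseudocount of 1. Within libraries, TFRC had 0.127 counts per FTH1 count in parental, 0.16 in adriamycin-resistant and 0.236 in paclitaxel-resistant cells. Against FTL the order turned, with 5.56, 1.81 and 1.81 TFRC counts per FTL count, so the receptor was higher relative to the heavy chain and lower relative to the light chain in both resistant lines.

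SLC11A2 (NCBI Gene 4891, chr12:50979401-51028566, minus strand), also known as DMT1, moves ferrous iron across the endosomal membrane. Its level was 59.8 TPM in parental, 48.8 in adriamycin-resistant and 32.9 in paclitaxel-resistant cells, from 3598, 4467 and 2427 counts. The paclitaxel-resistant line was the lowest. SLC11A2 was 2.29-fold lower in paclitaxel-resistant than in parental cells (2.17 to 2.41, log2 change -1.19). As for FTH1, the change fell under 2-fold with library size only, at -0.97, and on TPM with a pseudocount of 1, at -0.84. The log2 change was -0.24 in adriamycin-resistant against parental cells and -0.96 between the resistant lines.

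The STEAP family differed among its members. STEAP3 (NCBI Gene 55240, chr2:119223831-119265652, plus strand) is the endosomal ferric reductase best known from red cell precursors and was the main STEAP mRNA among the 3 measured here. It had 49.2 TPM in parental, 37.8 in adriamycin-resistant and 12.03 in paclitaxel-resistant cells, from 2904, 3329 and 864 counts. The paclitaxel-resistant line was low, and the other lines were close. STEAP3 was 5.18-fold lower in paclitaxel-resistant than in parental cells (4.8 to 5.6, log2 change -2.37) and 4.06-fold lower than in adriamycin-resistant cells (3.77 to 4.38, log2 change -2.02), with a log2 change of -0.35 between adriamycin-resistant and parental cells. Of all genes compared, 3.43% had a lower log2 change in paclitaxel-resistant against parental cells. NCOA4 and STEAP3 were lower by at least 2-fold in paclitaxel-resistant against parental cells under every normalisation run, with log2 changes of -1.74 to -1.39 and -2.39 to -1.90.

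STEAP1 (NCBI Gene 26872, chr7:90154375-90164829, plus strand), which lacks the domain that binds the electron donor of the other reductases, had 0 counts in parental cells and 28 counts in each resistant line. These correspond to 1.02 TPM in adriamycin-resistant and 1.255 TPM in paclitaxel-resistant cells. Against a floor of 3 counts set for the parental library, STEAP1 was at least 6.38-fold higher in adriamycin-resistant and at least 6.05-fold higher in paclitaxel-resistant cells, which leaves out the counting error of the 28 counts. The ratio between the resistant lines was 0.949 (0.542 to 1.66), so no difference between them was detectable at this depth. STEAP2 (NCBI Gene 261729, chr7:90167590-90238137, plus strand), a ferric and cupric reductase that lies next to STEAP1, had 0, 3 and 4 counts in parental, adriamycin-resistant and paclitaxel-resistant cells, and no fold is given. The paralog STEAP1B, with which STEAP1 may share reads, had 4, 21 and 3 counts. The antisense genes STEAP2-AS1 and STEAP3-AS1 had 0, 0 and 0 counts and 3, 7 and 0 counts, far below STEAP3. The library kit keeps strand, but whether counting used it was not given in the sources used here.

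Genes within 500 kb of STEAP1 and STEAP2 in the RefSeq annotation of GRCh38.p14 were also counted more in the resistant lines, in part. CFAP69, a gene of the sperm flagellum, had 7, 50 and 142 counts in parental, adriamycin-resistant and paclitaxel-resistant cells and was 4.83-fold (2.2 to 12.8) and 13.0-fold (6.22 to 33.3) higher than in parental cells. On TPM with a pseudocount of 1 it was under 2-fold in adriamycin-resistant cells, at a log2 change of 0.39. The more abundant neighbours stayed under 2-fold. GTPBP10, which acts on mitochondrial ribosomes, had 404, 1081 and 956 counts, 1.83 and 1.53 times the parental level after normalisation. CLDN12, a claudin, had 937, 2626 and 2371 counts, or 1.92 and 1.64 times, and CDK14, a cyclin-dependent kinase, had 1218, 3162 and 2302 counts, or 1.77 and 1.23 times. The uncharacterised LOC101927446 had 0, 11 and 10 counts, so like STEAP1 it was counted in the resistant libraries and not in the parental one.

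Ferroportin and the regulator IREB2 stayed under 2-fold. SLC40A1 (NCBI Gene 30061, chr2:189560579-189583758, minus strand) had 37 counts in parental, 101 in adriamycin-resistant and 81 in paclitaxel-resistant cells, or 0.735, 1.34 and 1.32 TPM. Its ratio to parental cells was 1.86 (1.27 to 2.8) in adriamycin-resistant and 1.42 (0.951 to 2.15) in paclitaxel-resistant cells, and the second interval included 1. IREB2 (NCBI Gene 3658, chr15:78437431-78501456, plus strand) had 27.2, 29.9 and 39.5 TPM from 2544, 4241 and 4522 counts. Its ratio to parental cells was 1.14 (1.08 to 1.2) and 1.15 (1.1 to 1.21), larger than counting error.

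Other genes of iron handling were described from lists of the pathway, beside the shares of all genes called. In the list of iron uptake and reduction, 12 genes were compared with parental cells. In adriamycin-resistant cells 1 was higher and 4 were lower, with a median log2 change of -0.55, beside 11.0% and 11.2% of all genes. In paclitaxel-resistant cells 0 were higher and 4 were lower, with a median of -0.51, beside 20.5% and 13.5%. CD44, a hyaluronan receptor that can also carry iron-bound hyaluronan into cells, had 54520, 30752 and 15668 counts in parental, adriamycin-resistant and paclitaxel-resistant cells and was 2.59-fold (2.56 to 2.63) and 5.37-fold (5.27 to 5.46) lower than in parental cells. SLC22A17, a receptor for the siderophore carrier lipocalin-2, was the gene that was higher in adriamycin-resistant cells, with 45, 306 and 131 counts and a log2 change of 2.21. LRP1, an endocytic receptor for heme-hemopexin, had 647, 335 and 487 counts and log2 changes of -1.50 and -1.03. FRRS1, a ferric reductase, was lower in adriamycin-resistant cells, with 595, 374 and 515 counts and log2 changes of -1.22 and -0.83.

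Transferrin itself, TF, had 379, 278 and 154 counts and was 3.79-fold lower (3.14 to 4.61) in paclitaxel-resistant than in parental cells. A further gene lower in both lines was TFR2, a second transferrin receptor best known from liver, which was named after its values were seen and had 17, 0 and 8 counts. Between the resistant lines, 11 were compared, and 1 was higher and 2, CD44 and SLC22A17, were lower in paclitaxel-resistant cells, with log2 changes of -1.05 and -1.30, beside 20.0% and 13.3% of all genes. With library size only CD44 went under 2-fold, at -0.84, and on TPM with a pseudocount of 1 both did. The gene that was higher was CYBRD1, a ferric reductase of the plasma membrane, with 1155, 1221 and 3360 counts in parental, adriamycin-resistant and paclitaxel-resistant cells and a 2.61-fold difference (2.45 to 2.79). CYBRD1 and STEAP3, both ferric reductases, thus had opposite directions between the resistant lines, with STEAP3 4.06-fold lower. Scaled by library size only, 2 genes of this list were higher and 3 were lower in paclitaxel-resistant against parental cells, with SLC22A17 and CYBRD1 past 2-fold and LRP1 under it. On TPM with a pseudocount of 1, 1 was higher and 1 was lower in adriamycin-resistant cells, where LRP1, FRRS1 and TFR2 went under 2-fold, and 2 were higher and 1 was lower in paclitaxel-resistant cells, where TF, LRP1 and TFR2 did.

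The list of iron export and its systemic control has 10 genes, of which HEPH, HAMP, HJV and TMPRSS6 had 0 counts in every library. In adriamycin-resistant against parental cells, 5 were compared, 0 were higher and 1 was lower, with a median log2 change of -0.55, beside 11.0% and 11.2% of all genes. In paclitaxel-resistant against parental cells, 6 were compared, 4 were higher and 1 was lower, with a median of 1.63, beside 20.5% and 13.5%. On TPM with a pseudocount of 1, 0 were called in adriamycin-resistant cells, and 3 were higher and 1 was lower in paclitaxel-resistant cells with a median of 0.62. CP, the ferroxidase ceruloplasmin, had 32, 1 and 174 counts in parental, adriamycin-resistant and paclitaxel-resistant cells, 3.52-fold higher (2.41 to 5.31) in paclitaxel-resistant than in parental cells. In adriamycin-resistant cells the difference rested on 1 count, with an interval of 7.82- to 1907-fold lower. NEO1, a receptor that also acts in hepcidin control, had 719, 720 and 3029 counts and a log2 change of 1.45 in paclitaxel-resistant cells. BMP6, a ligand of the hepcidin pathway, had 25, 29 and 137 counts and a log2 change of 1.83, and HEPHL1, a hephaestin-like ferroxidase named after its values were seen, had 0, 0 and 16 counts. HFE, which binds the transferrin receptor, was lower in paclitaxel-resistant cells, with 739, 1008 and 367 counts, 3.1-fold (2.74 to 3.53) below parental.

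Of the iron chaperones and genes controlling the iron regulatory proteins, 8 of 9 were compared and 0 changed by 2-fold in any comparison, beside 11.0% higher and 11.2% lower of all genes in adriamycin-resistant against parental cells, 20.5% and 13.5% in paclitaxel-resistant against parental cells, and 20.0% and 13.3% between the resistant lines. PCBP1 and FBXL5 were named after their values were seen. PCBP1, a chaperone that delivers iron to ferritin, had 10021, 15053 and 10085 counts. FBXL5, the ubiquitin ligase subunit that targets IREB2 protein for degradation, had 1304, 1733 and 2343 counts. The median log2 change of this list was 0.11 in adriamycin-resistant and -0.21 in paclitaxel-resistant cells, and the latter was 0.01 with library size only.

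Of the genes of heme synthesis, transport and breakdown, 17 of 19 were compared. In adriamycin-resistant against parental cells 1 was higher and 1 was lower, with a median log2 change of -0.0034, beside 11.0% and 11.2% of all genes. In paclitaxel-resistant against parental cells 1 was higher and 2 were lower, with a median of -0.43, beside 20.5% and 13.5%. This median was -0.21 with library size only and -0.10 on TPM with a pseudocount of 1. Between the resistant lines 0 were higher and 4 were lower in paclitaxel-resistant cells, beside 20.0% and 13.3%, and 2 were higher and 3 were lower with library size only. HMOX1, the inducible heme oxygenase that frees iron from heme, had 490 counts in parental, 3168 in adriamycin-resistant and 399 in paclitaxel-resistant cells, 4.42-fold higher (4.02 to 4.87) in adriamycin-resistant than in parental cells. It was 8.36-fold lower in paclitaxel-resistant than in adriamycin-resistant cells (7.54 to 9.31). The gene lower in adriamycin-resistant cells was HPX, the heme-binding hemopexin, named after its values were seen, with 20 counts in parental and 12 in adriamycin-resistant cells. SLC48A1, a lysosomal heme transporter, had 2817, 2957 and 1070 counts and BLVRA, a biliverdin reductase, had 837, 833 and 312 counts, 4.06-fold (3.78 to 4.36) and 4.14-fold (3.63 to 4.73) lower in paclitaxel-resistant than in parental cells. FECH, which inserts iron into heme, had 745, 1338 and 2417 counts and a log2 change of 1.07 in paclitaxel-resistant cells.

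All 27 genes of mitochondrial iron and iron-sulfur cluster assembly were compared. In adriamycin-resistant against parental cells 1 was higher and 0 were lower, with a median log2 change of 0.26, beside 11.0% and 11.2% of all genes. The gene was CISD3, a mitochondrial iron-sulfur protein named after its values were seen, with 577 counts in parental and 1746 in adriamycin-resistant cells, whereas on TPM with a pseudocount of 1 it was ISCA2, at a log2 change of 1.24. In paclitaxel-resistant against parental cells 0 were higher and 2 were lower, with a median of -0.22, beside 20.5% and 13.5%. These were IBA57, an assembly factor, with 679, 1187 and 371 counts and a log2 change of -1.50, and CIAO2B, a member of the cytosolic targeting complex, with 785, 870 and 516 counts and a log2 change of -1.23. On TPM both went under 2-fold, at -0.95 and -0.92, 1 gene was higher and the median was 0.08. Between the resistant lines, 0 were higher and 6 were lower in paclitaxel-resistant cells, beside 20.0% and 13.3%, among them the chaperone HSPA9 with 36966 counts in adriamycin-resistant and 14472 in paclitaxel-resistant cells and the assembly factor ISCA2 with 1056 and 426 counts. With library size only 4 were lower, and on TPM 2 were higher and 3 were lower, with the median going from -0.36 to 0.02.

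Of 14 genes of ferroptosis, a cell death driven by iron-dependent lipid peroxidation, 13 were compared with parental cells. In adriamycin-resistant cells 3 were higher and 1 was lower, with a median log2 change of 0.03, beside 11.0% and 11.2% of all genes. In paclitaxel-resistant cells 0 were higher and 5 were lower, with a median of -0.49, beside 20.5% and 13.5%. AIFM2, a suppressor of ferroptosis that regenerates ubiquinol, had 543, 1602 and 110 counts in parental, adriamycin-resistant and paclitaxel-resistant cells. It was 2.02-fold higher (1.83 to 2.23) in adriamycin-resistant and 7.6-fold lower (6.19 to 9.43) in paclitaxel-resistant than in parental cells. The call in adriamycin-resistant cells sat at the threshold and was lost on TPM, at a log2 change of 0.91. The lipoxygenase ALOX5 followed the same order, with 65, 407 and 38 counts and log2 changes of 2.10 and -1.40, and the lipoxygenase ALOX15 had 162, 624 and 485 counts and log2 changes of 1.40 and 0.96. ACSL4, which supplies the lipids that are peroxidised, was the gene lower in adriamycin-resistant cells, with 1798, 1073 and 1981 counts and a log2 change of -1.29. The others lower in paclitaxel-resistant cells were KEAP1, CHAC1 and NFE2L2, the last named after its values were seen, with log2 changes of -1.11, -1.04 and -1.04. Scaled by library size only, 1 gene of this list was higher and 2 were lower in paclitaxel-resistant cells, with ALOX15 past 2-fold and KEAP1, CHAC1 and NFE2L2 under it. On TPM with a pseudocount of 1, 1 was higher and 2 were lower in these cells, with ALOX5 under 2-fold at -0.76 and CHAC1 past it at -1.34.

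**Figure D4:**
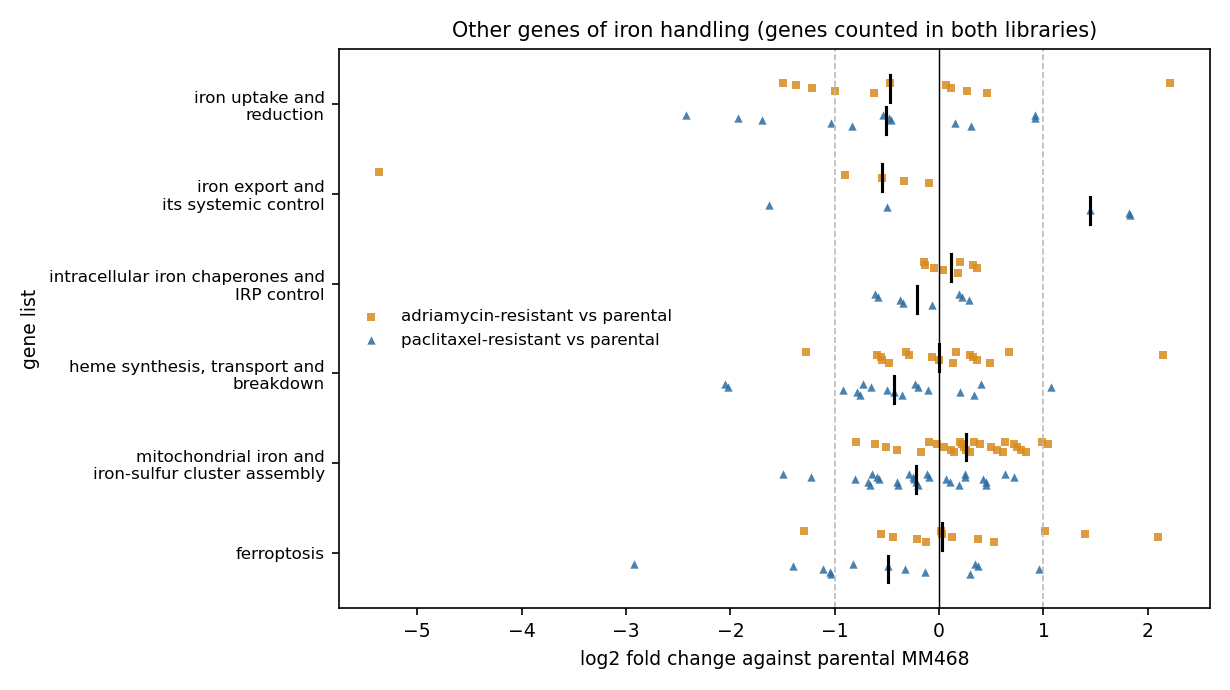
Log2 fold change against parental MM468 of the other genes of iron handling in 6 lists, 1 symbol per gene counted in both libraries, with black ticks at the median of the genes drawn and dashed lines at a 2-fold change; genes with 0 counts in a library are not drawn. The chaperone list lay within 2-fold in both resistant lines, and the point farthest left is CP, which rests on 1 count in adriamycin-resistant cells.

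Markers of other cell types were near 0 in places and moved in others. Red cell precursors are rich in STEAP3 and TFRC, and of the hemoglobin genes that mark them HBA1 had 0, 4 and 22 counts and HBA2 had 0, 4 and 17 counts in parental, adriamycin-resistant and paclitaxel-resistant cells, while HBB had 0 counts in every library. The 5 leukocyte markers summed to 42.9, 16.6 and 2.98 TPM, led in parental cells by CD14 with 755, 94 and 15 counts, and 2 of the 5 had 0 counts in each library. CD68 had 206, 527 and 65 counts and PTPRC had 24, 0 and 44 counts, so these did not follow CD14 in every line. The 5 fibroblast markers summed to 7.81, 13.3 and 7.72 TPM, with COL1A1 at 659, 1629 and 820 counts, and the 3 endothelial markers to 0.304, 0.408 and 0.386 TPM. The part of these markers in the differences of the iron genes was not tested.

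The gene with the widest range over the 3 libraries among the members with 100 or more counts was STEAP3, at 2.37 on the log2 scale. The 3 genes nearest to it in log2 change against parental cells, of 13904 with 100 or more counts in 1 library, were AK5, an adenylate kinase, TMC4, a transmembrane channel-like protein, and FUT2, a fucosyltransferase. AK5 had 692, 795 and 212 counts in parental, adriamycin-resistant and paclitaxel-resistant cells, at a distance of 0.0429. TMC4 had 628, 704 and 182 counts at 0.0492, and FUT2 had 280, 308 and 83 counts at 0.0595. The distance is Euclidean over 2 log2 changes from 3 libraries.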

How the data were processed

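The authors deposited 1 table with whole-number read counts per gene, not normalized, beside their FPKM and TPM values (deposited FPKM and TPM are scaled by length and depth). Per the submitters' processing notes, Trimmomatic 0.39, HISAT2 2.2.1, StringTie 2.2.1 and GRCh38 were used. How strand was counted and the annotation release were not given in the sources used here. The RNA kit is MagMAX mirVana by the labels and another by the methods.

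Counts were normalized in R 4.3.3 with edgeR 4.0.16 (TMM over 3 libraries, genes with 10 or more counts in 1), with a prior count of 0.125. The quasi-likelihood test could not be fitted with 1 library per line, so changes are called at 2-fold. All genes of the table were analysed together. Zero counts were set against 3 counts, which is a normalised CPM of 0.0968 in parental, 0.0661 in adriamycin-resistant and 0.0627 in paclitaxel-resistant cells. Intervals are exact binomial intervals computed with scipy 1.17.1. Steps were tested on simulated data. Positions and IRE pattern matches came from GENCODE v29. List genes were named if they changed at least 2-fold with 100 or more counts in 1 of the libraries compared, up to 6 per list by size; others are said to have been named after their values were seen, and genes with opposite signs in the resistant lines are listed in the closing section. The members and lists were chosen with earlier results of these data known. Alternatives were other normalizations (DESeq2 1.42.0 size factors, library size, pairwise TMM), TPM or FPKM with a pseudocount of 1 or 0.1, a prior count of 2, other count minimums, and thresholds of 1.5- and 4-fold. Of the marker and list genes examined, 2 are not reported here.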

Additional observations from a re-analysis of the deposited data

Results flagged for a closer look

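A total of 32 genes of the surrounding lists, and 0 of the 10 iron genes, had log2 changes of opposite sign in the resistant lines with both counting intervals clear of 0. The share of all genes that did so is not given here, so the count is not read as a trait of these lists. With deep libraries a counting interval can be clear of 0 at a very small change. In each case the log2 change against parental cells is given first for adriamycin-resistant and then for paclitaxel-resistant cells. Both use the same parental library, and the difference between the lines was not tested because each has 1 library. Among uptake and export genes these were CYBRD1 (-0.47 and 0.92), MCOLN1 (0.46 and -0.53), SNX3 (0.0675 and -0.48), CP (-5.37, on 1 count, and 1.81) and NEO1 (-0.55 and 1.45). Among the iron chaperones and genes controlling the iron regulatory proteins they were PCBP1 (0.0377 and -0.62), PCBP2 (0.20 and -0.0656), FBXL5 (-0.14 and 0.22), BOLA2 (0.33 and -0.35), GLRX3 (0.18 and -0.59) and TAX1BP1 (-0.0456 and 0.29). Among heme genes they were HMOX1 (2.14 and -0.92), HMOX2 (-0.60 and 0.34), the heme and folate carrier SLC46A1 (0.36 and -0.79), FLVCR2 (0.32 and -0.65), BLVRB (0.17 and -0.50) and UROS (0.48 and -0.11). Among iron-sulfur cluster genes they were IBA57 (0.26 and -1.50), HSPA9 (0.83 and -0.60), MMS19 (0.74 and -0.66), ISCA2 (0.99 and -0.40), CISD1 (0.39 and -0.80), ABCB8 (0.56 and -0.57), FDX2 (0.14 and -0.68), NFS1 (0.30 and -0.29) and ISCU (0.22 and -0.22). Among ferroptosis genes they were AIFM2 (1.01 and -2.93), ALOX5 (2.10 and -1.40), KEAP1 (0.12 and -1.11), SLC3A2 (0.37 and -0.32), POR (0.52 and -0.13) and SLC7A11 (-0.13 and 0.34).

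The signs were opposite for all 32 with pairwise TMM and with DESeq2 size factors. With library size only they were opposite for 29, the exceptions being PCBP2, POR and UROS, and on TPM with a pseudocount of 1 for 26, where NFS1, PCBP1 and SLC3A2 were further exceptions.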

How the results depend on the processing

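No paired analysis was possible because each line has 1 library, and for the same reason no replicate was left out. Depth limits STEAP1, STEAP2 and SLC40A1, which had at most 101 counts in a library. Of the iron genes, 2 were higher in each resistant line; 1 was with a minimum of 100 counts, with a count required in all 3 libraries, with FPKM and a pseudocount of 1, and at 4-fold. The 4 lower in paclitaxel-resistant cells became 2 with library size only, with TPM and a pseudocount of 1, and with FPKM and a pseudocount of 1 or 0.1, and 1 at 4-fold. The 2 lower between the resistant lines became 1 at 4-fold and 4 at 1.5-fold. No called member turned its direction.

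Over all genes, adriamycin-resistant against parental cells gave 1981 higher and 2019 lower. These became 4283 and 3822 with no minimum, 825 and 1030 with a minimum of 100 counts, 707 and 1085 with TPM, 460 and 663 with FPKM and a pseudocount of 1, 880 and 711 at 4-fold, and 3562 and 3528 at 1.5-fold. Paclitaxel-resistant against parental cells gave 3924 and 2569. These became 6952 and 4033 with no minimum, 1584 and 1728 with a minimum of 100 counts, 2607 and 1055 with TPM, 1374 and 882 with FPKM, 1586 lower with FPKM and a pseudocount of 0.1, 1998 and 872 at 4-fold, and 4471 lower at 1.5-fold. Between the resistant lines, 3864 and 2562 became 6645 and 4112 with no minimum, 1632 and 1720 with a minimum of 100 counts, 871 lower with TPM, 1334 and 781 with FPKM, 1517 lower with FPKM and a pseudocount of 0.1, 1783 and 815 at 4-fold, and 5813 and 4584 at 1.5-fold. With library size only, the share of higher among called genes went from 60.4% to 71.2% in paclitaxel-resistant against parental cells and from 60.1% to 71.4% between the resistant lines. With TPM it went to 71.2% and 76.6%, and in adriamycin-resistant against parental cells from 49.5% to 39.5%. With a minimum of 100 counts the share went down to 47.8% in paclitaxel-resistant against parental cells and to 48.7% between the resistant lines, so that lower calls outnumbered higher ones.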
